A study of Mus musculus with 34 samples.

Results

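RNA-seq of mouse embryonic stem (ES) cells was used to ask how the transcriptional response to culture differs when the NuRD complex cannot form. The comparison holds all 16 libraries of the Control and Mta123KO genotypes, of 34 libraries in the series, and the quantity described is the interaction of genotype and culture, the difference between the genotypes in the change from one culture to the other. Each genotype was represented by 2 lines, and each line by 2 libraries in each culture, so that 4 groups of 4 libraries were compared. Control cells carried 1 deleted Mta1 allele, both Mta2 alleles and floxed Mta3 (Mta1 +/∆ Mta3 flox/flox), and came from a derivation parallel to that of the knockout's parent line. Mta123KO cells (Mta1 ∆/∆ Mta2 ∆/- Mta3 ∆/∆) were made by deleting Mta2 with guide RNAs in Mta1-null, Mta3-floxed cells and then Mta3 with Cre, and lack all MTA proteins. The controls already had a partly reduced Mta1 dose. Both were of 129/Ola background and were grown on gelatin in 2i/LIF (2iL), in which Mek and Gsk3 are inhibited in serum-free medium and the cytokine LIF is added, or were induced to differentiate by withdrawing both inhibitors and LIF for 48 h in N2B27 medium.

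NuRD (Nucleosome Remodelling and Deacetylation) couples a chromatin remodeller, Chd4, with the histone deacetylases Hdac1 and Hdac2, and the MTA proteins form the scaffold on which the deacetylase part is built. In 2iL, mouse ES cells hold a naive state maintained by factors such as Esrrb, Klf4, Tfcp2l1 and Nanog. On withdrawal of the inhibitors and LIF these factors are silenced and genes of the formative, early post-implantation epiblast, such as Pou3f1, Dnmt3a and Dnmt3b, are induced before cells take on lineage fates.

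For all 16 libraries the culture in the label is the reverse of that in the name of the file. Cultures are therefore written as labelled, and a culture change is the log2 value in libraries labelled 48 h minus that in libraries labelled 2iL. The summed level of 5 naive ES cell markers was 145 to 227 CPM (counts per gene scaled to the size of the library) in Control labelled 2iL and 3420 to 3750 CPM in Control labelled 48 h, so the naive markers go against the labels. In Mta123KO the same sum was 375 to 509 CPM under the 2iL label and 1794 to 2669 CPM under the 48 h label. If the file names hold the true cultures, every sign below is reversed, but neither the size of an interaction nor the naming of a response as lost, reversed, gained, weakened or amplified is altered. The interaction is the Mta123KO change minus the Control change. A value of -2 means that the ratio of the level labelled 48 h to that labelled 2iL was 4 times smaller in the knockout. For a gene with a positive Control change, the Mta123KO change may then be smaller, absent or opposite.

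The libraries held 37855790 to 57602285 counts in genes (median 45040068). Mta2, deleted in the knockout, was at 123 and 192 CPM in Control labelled 2iL and labelled 48 h and at 6.72 and 8.28 CPM in Mta123KO. Mta3 was at 65.1 and 40.8 CPM in Control and at 19 and 15 CPM in Mta123KO, and Mta1 at 42.0 and 28.5 CPM against 24.6 and 17.8 CPM. The counts include reads from undeleted exons. By edgeR the interactions of the 3 targeted genes were not past the threshold (0.10 ± 0.25 (SE), adjusted p = 0.828 for Mta1, -0.35 ± 0.26, adjusted p = 0.373 for Mta2 and 0.33 ± 0.32, adjusted p = 0.506 for Mta3), and all 3 were lower in Mta123KO under both labels. Libraries of a line are not shown to be separate cultures, and p-values over single libraries may therefore be too small. Counts over all genes and those of many lists are given beside a fit in which the libraries of a line were summed, leaving 2 samples per group. A list count given alone is from the fit of single libraries.

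Of 22973 genes tested, 2993 (13.0%) passed both thresholds for the interaction, an absolute log2 value above 1 and an adjusted p under 0.05 (edgeR quasi-likelihood test, Benjamini-Hochberg), and 7963 had an unadjusted p under 0.05. The interaction was above 0 for 1759 genes (7.66%) and below 0 for 1234 (5.37%). With libraries of a line summed, 667 of 25816 genes (2.58%) were called, and 665 of these were among the 2993, which is 22.2% of the larger and 99.7% of the smaller list. Leaving out Control line 1 gave 984 genes above and 655 below 0, and leaving out Control line 2 gave 1142 above 0. Scaling by spike-in RNAs instead of TMM lowered the median interaction of all genes from -0.00168 to -0.223. It called 1252 genes above and 1554 below 0 (12.2% in all), so the share of called genes above 0 dropped from 58.8% to 44.6%, while 2462 genes were called by both scalings (82.3% of the TMM list and 87.7% of the spike-in list) and 0 genes were called by both with opposite signs. Which direction held the majority of calls thus depended on the scaling. Spike-in factors differed between the libraries of some lines. They were 0.7522 and 1.184 for line 1 of Control labelled 48 h (TMM 0.985 and 1.005) and 0.9461 and 1.294 for line 2 of Mta123KO labelled 2iL (TMM 1.009 and 1.038).

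**Figure D1:**
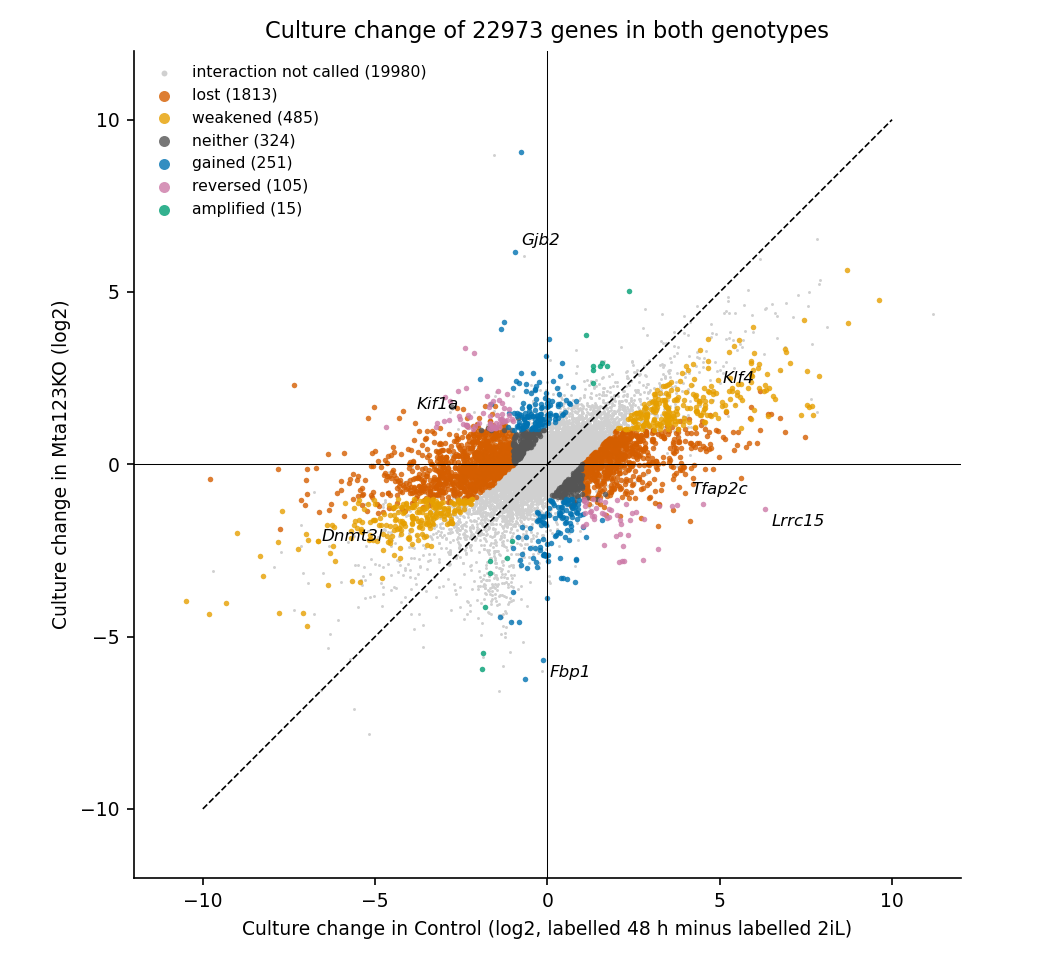
Culture change in Control (horizontal axis, log2, libraries labelled 48 h minus labelled 2iL) against that in Mta123KO (vertical axis, log2) for 22973 genes, each point being a gene coloured by response class and the dashed line marking equal changes. The 1813 lost genes lie along the horizontal axis, the 485 weakened genes between that axis and the dashed line, and the 105 reversed genes in the upper left and lower right quadrants.

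In Control 5376 genes (23.4%) differed between the culture labels, 2349 (10.2%) above and 3027 (13.2%) below 0, against 2680 genes (11.7%) in Mta123KO, 1276 (5.55%) above and 1404 (6.11%) below 0. A response was named lost where the change was called in Control and the interaction was called but the Mta123KO change was not, and gained for the converse. It was named reversed where both changes were called with opposite signs, and weakened or amplified where both were called with the same sign and the Mta123KO change was the smaller or the larger. Of the 2993 genes with a called interaction, 1813 (7.89% of genes tested) had a lost response, 485 (2.11%) a weakened, 251 (1.09%) a gained, 105 (0.457%) a reversed and 15 (0.0653%) an amplified response, and 324 (1.41%) had neither change called. Among the lost responses, 1142 were of genes lower and 671 of genes higher in Control labelled 48 h than in Control labelled 2iL, and 1138 had a Mta123KO change of less than 0.5 on the log2 scale. A lost response need not be an absent one, since it means only that the Mta123KO change was not called. In 767 of the lost and 173 of the gained genes the estimated changes of the genotypes had opposite signs. In the fit of summed lines, 433 of the lost, 131 of the weakened, 28 of the gained and 56 of the reversed genes were among the 667 called. None of the amplified genes was, by edgeR, 13 of them having an unadjusted p under 0.05 in that fit. Lost and weakened genes thus made up most of the called genes, and amplified responses were the rarest class.

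The carry-over of responses between the genotypes was not symmetrical. Of genes called in Control, 31.6% were called with the same sign in Mta123KO, 1.95% were called with the opposite sign, and the median ratio of the Mta123KO change to the Control change was 0.348. Of genes called in Mta123KO, 63.4% were called with the same sign in Control and the median ratio of the Control change to the Mta123KO change was 1.01. Choosing genes by a large change in 1 group favours a large change in that group, so the same was done from 1 line and read in the other lines. For 2010 genes with a change above 1 in Control line 1, the median change was 1.74 in that line and 1.57 in Control line 2, but 0.71 and 0.85 in Mta123KO lines 1 and 2. For 2262 genes below -1 in Control line 1 the medians were -1.75, -1.62, -0.50 and -0.65 in the same order. For 1202 genes chosen above 1 in Mta123KO line 1, the medians were 1.41 in that line, 1.33 in Mta123KO line 2, and 1.39 and 1.26 in Control lines 1 and 2. For 1037 genes chosen below -1 in that line they were -1.53, -1.32, -1.42 and -1.36. For 1201 genes chosen above 1 in Mta123KO line 2, the medians were 1.49 in that line, 1.26 in Mta123KO line 1 and 1.74 and 1.61 in Control lines 1 and 2, and for 1108 genes chosen below -1 they were -1.54, -1.25, -1.76 and -1.60. Responses chosen in Mta123KO line 1 were thus close in size in Control and in the other knockout line, and those chosen in Mta123KO line 2 were larger in both Control lines than in the other knockout line. Responses chosen in Control line 1 were smaller in both knockout lines than in the other Control line.

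**Figure D2:**
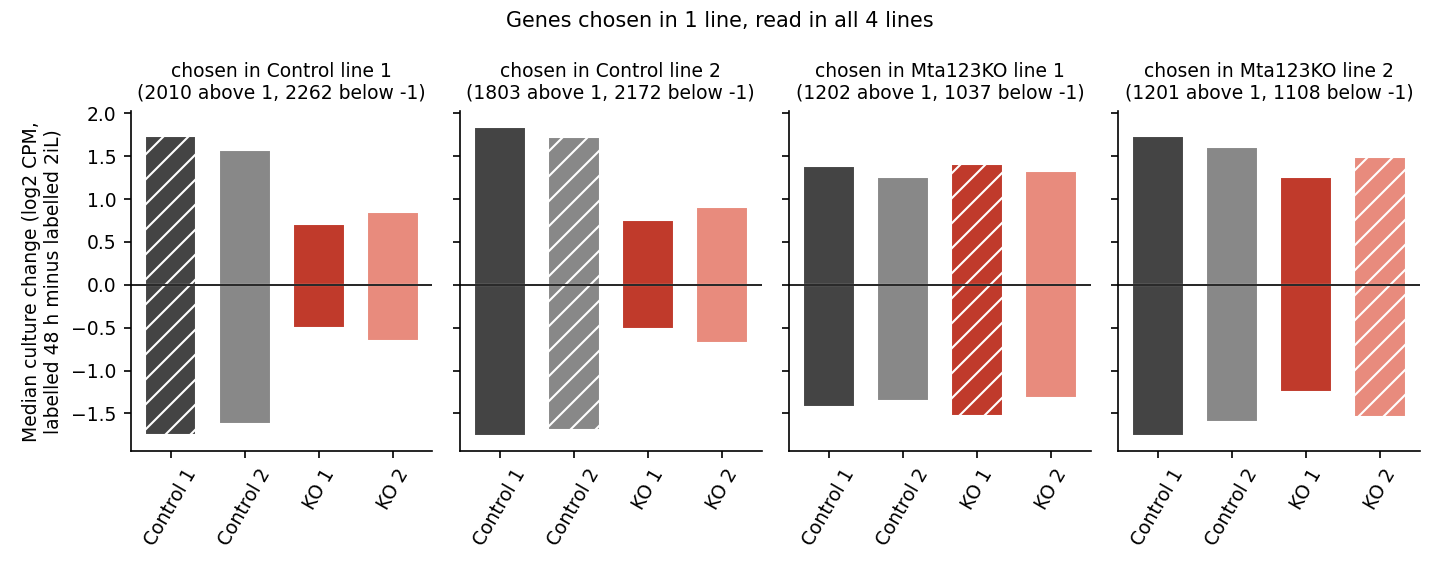
Median culture change (log2 CPM, labelled 48 h minus labelled 2iL) in Control lines 1 and 2 and Mta123KO lines 1 and 2 (bars, from 0) of genes chosen by a change above 1 or below -1 in the hatched line. Genes above 1 in Control line 1 had medians of 0.71 and 0.85 in the Mta123KO lines against 1.57 in Control line 2, while genes above 1 in Mta123KO line 1 had medians of 1.39 and 1.26 in the Control lines and those above 1 in Mta123KO line 2 had 1.74 and 1.61.

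Over all 22973 genes, the root mean square culture change in log2 CPM of the 4 same-numbered pairs was 1.28, 1.24, 1.20 and 1.17 in Control (mean 1.224 ± 0.04523, SD, n = 4) and 0.846, 0.832, 0.841 and 0.850 in Mta123KO (0.8422 ± 0.007488, SD, n = 4). All 4 Mta123KO values lay below all 4 Control values. The difference was -0.3817 (exact permutation test, two-sided, p = 0.02857, the smallest that 4 against 4 can give). With libraries of a line summed the values were 1.31 and 1.23 in Control and 0.868 and 0.872 in Mta123KO, and the order was the same. For single genes, the 4 per-number changes of one genotype did not overlap those of the other in 8369 genes (36.4%).

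Factors of the naive state had the highest share of called members (85.7%) among the 46 lists of genes examined, and most of their responses were weakened. Of 14 naive pluripotency factors, 12 were called, 11 with an interaction below 0 and 1 above, of which 9 were weakened and 3 lost, and 6 were also called with lines summed. The median change of the 14 genes was 3.60 in Control and 1.76 in Mta123KO, with a median interaction of -1.92 beside -0.00168 over all genes. In each set of 4 values here and below, libraries 1 and 2 of line 1 come first and libraries 1 and 2 of line 2 follow. Tfcp2l1, a transcription factor of the naive network (ENSMUSG00000026380, chromosome 1, 118627945 to 118685168, plus strand, GRCm38), was at 29.4, 42.2, 34.1 and 38.4 CPM in Control labelled 2iL, 1927, 1872, 1717 and 1622 CPM in Control labelled 48 h, 225, 213, 130 and 128 CPM in Mta123KO labelled 2iL and 734, 703, 1043 and 1042 CPM in Mta123KO labelled 48 h. The 4 groups did not overlap, and in Mta123KO it was higher under the 2iL label and lower under the 48 h label than in Control, with an interaction of -3.29 ± 0.27 (SE), adjusted p = 9.49e-07. Klf4, a zinc finger factor of the same network, was at 2.94, 7.88, 2.94 and 4.95 CPM in Control labelled 2iL, 146, 147, 116 and 140 CPM in Control labelled 48 h, 17.7, 22.3, 23.7 and 25.7 CPM in Mta123KO labelled 2iL and 82.4, 84.3, 97.4 and 111 CPM in Mta123KO labelled 48 h, an interaction of -2.81 ± 0.34 (SE), adjusted p = 2.64e-05. The same narrowing from both ends was found for Tbx3 (Control 3.88 and 151, Mta123KO 19.3 and 83.7 CPM, interaction -3.17 ± 0.33 (SE), adjusted p = 7.49e-06) and for Esrrb (Control 62.4 and 668, Mta123KO 160 and 531 CPM, interaction -1.69 ± 0.22 (SE), adjusted p = 5.49e-05). Nr0b1, an orphan nuclear receptor, differed only in Control (12.2 and 62.3 CPM against 10.1 and 11.9 CPM in Mta123KO, interaction -2.12 ± 0.43 (SE), adjusted p = 0.00205). Gbx2, a homeobox gene downstream of Stat3, moved against the rest, with 61.9 and 19.6 CPM in Control and 6.47 and 8.36 CPM in Mta123KO and an interaction of 2.03 ± 0.28 (SE), adjusted p = 0.000105.

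The response of the naive network was not uniform. Nanog, the homeobox factor of this network, was at 48.4, 83.9, 62.8 and 75.2 CPM in Control labelled 2iL, 870, 1016, 861 and 987 CPM in Control labelled 48 h, 70, 67.5, 60.4 and 63.8 CPM in Mta123KO labelled 2iL and 522, 544, 832 and 854 CPM in Mta123KO labelled 48 h. Its change was 3.79 ± 0.19 (SE) in Control and 3.39 ± 0.19 (SE) in Mta123KO, and the interaction of -0.39 ± 0.24 (SE), adjusted p = 0.274 was not past the threshold. The Mta123KO lines differed, as the interaction of Nanog was -0.06 without Mta123KO line 1 and -0.81 without Mta123KO line 2. Zfp42, also known as Rex1, had changes of 1.52 ± 0.13 (SE) and 1.05 ± 0.13 (SE) and an interaction of -0.48 ± 0.18 (SE), adjusted p = 0.0669, likewise not past it. Pou5f1, which is shared by naive and formative cells, had changes of 0.15 ± 0.12 (SE) and 0.49 ± 0.12 (SE) and an interaction of 0.34 ± 0.17 (SE), adjusted p = 0.156. Its interaction was 0.10 without Mta123KO line 1 and 0.63 without Mta123KO line 2. Of 9 general pluripotency genes 3 were called (33.3%, beside 13.0% of all genes), all above 0. Among them Tdgf1, the Nodal co-receptor, had a gained response, being at 268, 264, 248 and 265 CPM in Control labelled 2iL, 199, 230, 176 and 180 CPM in Control labelled 48 h, 46.3, 60.6, 86.4 and 92.8 CPM in Mta123KO labelled 2iL and 197, 166, 219 and 181 CPM in Mta123KO labelled 48 h. Its Control groups lay close together, whereas the Mta123KO groups were apart, and the interaction was 1.83 ± 0.24 (SE), adjusted p = 5.49e-05. The RNA-binding protein gene Lin28a and Utf1 were weakened, with interactions of 1.16 ± 0.14 (SE), adjusted p = 2.34e-05 and 1.78 ± 0.45 (SE), adjusted p = 0.00916.

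**Figure D3:**
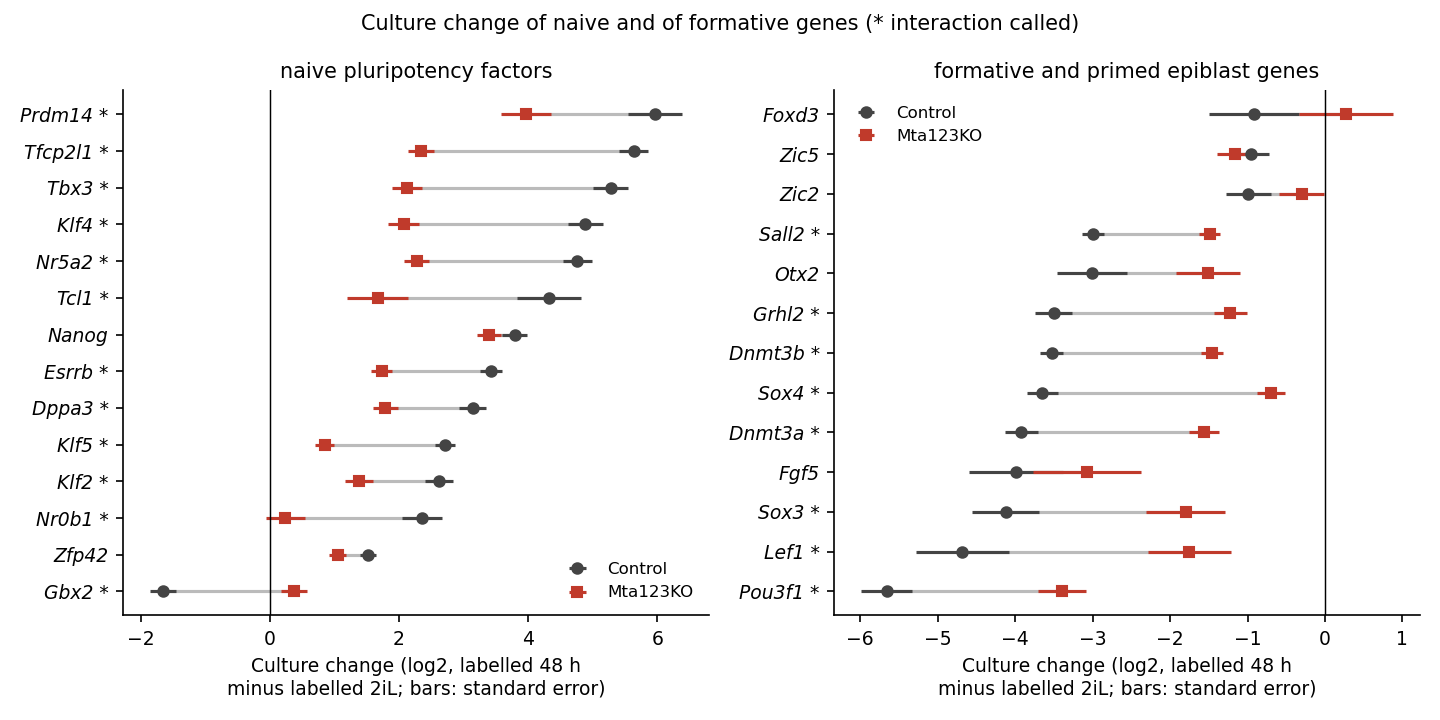
Culture change (horizontal axis, log2, labelled 48 h minus labelled 2iL, bars standard errors) of 14 naive factors and 13 formative genes in Control (circles) and Mta123KO (squares), with a star where the interaction was called. Most Mta123KO points lie nearer 0 than the Control points, with Nanog and Zfp42 nearly level.

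Formative epiblast genes changed in the other direction and were likewise mostly weakened. Of 13 such genes 8 were called (61.5%, beside 13.0% of all genes), all with an interaction above 0, of which 7 were weakened and 1 lost, and 5 were also called with lines summed. The median changes were -3.53 in Control and -1.49 in Mta123KO, with a median interaction of 2.07. Dnmt3a, a de novo DNA methyltransferase, was at 523, 464, 503 and 479 CPM in Control labelled 2iL, 27.4, 31.1, 31.6 and 39.8 CPM in Control labelled 48 h, 339, 329, 490 and 398 CPM in Mta123KO labelled 2iL and 176, 156, 92.8 and 104 CPM in Mta123KO labelled 48 h. Its level under the 48 h label was higher in every Mta123KO library than in every Control library, and the interaction was 2.37 ± 0.26 (SE), adjusted p = 1.28e-05. Dnmt3b was instead lower in Mta123KO under the 2iL label, at 882 and 76.3 CPM in Control and 223 and 81.1 CPM in Mta123KO (interaction 2.07 ± 0.20 (SE), adjusted p = 3.56e-06). Dnmt3l, the catalytically inactive partner of both enzymes, was higher in Mta123KO under both labels, at 234 and 7.1 CPM in Control and 487 and 157 CPM in Mta123KO (interaction 3.42 ± 0.32 (SE), adjusted p = 2.93e-06). All 3 were weakened and all 3 were called with lines summed, and of the 8 DNA methylation and Tet genes tested 4 were called above 0, the other being the dioxygenase gene Tet3. Pou3f1, a POU factor of the early epiblast, reached 73.2 CPM in Control and 15.6 CPM in Mta123KO under the 2iL label from 1.45 and 1.5 CPM (interaction 2.28 ± 0.42 (SE), adjusted p = 0.00106). Sox4 was lost, at 58.4 and 4.66 CPM in Control and 27.3 and 16.9 CPM in Mta123KO (interaction 2.95 ± 0.26 (SE), adjusted p = 1.51e-06). Otx2 did not pass the threshold (interaction 1.5 ± 0.59 (SE), adjusted p = 0.0786).

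Among the genes whose Control response was lost, those named for large interactions above 0 were lowest in Control labelled 48 h and higher in the other 3 groups. The delta-protocadherin gene Pcdh18 (chromosome 3, 49743296 to 49757325, minus strand, GRCm38) was at 4.44, 2.72, 3.75 and 4.57 CPM in Control labelled 2iL, 0.0176, 0, 0.0719 and 0.0233 CPM in Control labelled 48 h, 0.149, 0.181, 0.753 and 0.711 CPM in Mta123KO labelled 2iL and 0.3, 0.418, 0.469 and 0.438 CPM in Mta123KO labelled 48 h. It was highest in Control labelled 2iL, held at most 3 counts per library in Control labelled 48 h, and had similar means under both labels in Mta123KO, so its interaction of 6.85 rests on few counts in 1 group. Zfp608, a zinc finger gene (10.6 and 0.15 against 4.08 and 2.3 CPM, interaction 5.28 ± 0.49 (SE), adjusted p = 2.51e-06), and Lrrc3 (5.39 and 0.102 against 3.55 and 2.43 CPM, interaction 5.21 ± 0.49 (SE), adjusted p = 3.11e-06) were also lost above 0. In the other direction, Ngfr, the low-affinity neurotrophin receptor (chromosome 11, 95568818 to 95587735, minus strand, GRCm38), was at 1.3, 1.25, 2.24 and 2.31 CPM in Control labelled 2iL, 25.3, 29.1, 26.6 and 31 CPM in Control labelled 48 h, 37.5, 29.5, 15.2 and 9.84 CPM in Mta123KO labelled 2iL and 15, 15.3, 11.6 and 10.2 CPM in Mta123KO labelled 48 h. Mta123KO levels were high under both labels, and the interaction was -4.80 ± 0.48 (SE), adjusted p = 5.29e-06. The homeobox gene Tlx2 (0.0322 and 4.04 CPM in Control and 0.165 and 0.322 CPM in Mta123KO), the serpin gene Serpinb6b (0.0052 and 1.4 and 0.12 and 0.211 CPM) and Rbm24, an RNA-binding regulator of muscle splicing (0.0461 and 2.88 and 0.591 and 0.918 CPM, interaction -5.23 ± 0.69 (SE), adjusted p = 6.44e-05), were instead low under both labels in Mta123KO.

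Sfrp2, a secreted Wnt inhibitor, was the lost gene with the smallest adjusted p of those named by the study. It was at 5.58, 5.09, 4.58 and 5.41 CPM in Control labelled 2iL, 0.935, 0.841, 0.455 and 0.933 CPM in Control labelled 48 h, 7.58, 7.98, 8.5 and 9.35 CPM in Mta123KO labelled 2iL and 13.4, 13, 13.4 and 13.9 CPM in Mta123KO labelled 48 h, so that it was lower in Control labelled 48 h than in any other group, and its interaction was 3.38 ± 0.22 (SE), adjusted p = 1.42e-07. Epcam, the epithelial cell adhesion molecule, was at 163, 153, 160 and 141 CPM in Control labelled 2iL, 30.7, 35.2, 28.4 and 36.2 CPM in Control labelled 48 h, 206, 207, 176 and 192 CPM in Mta123KO labelled 2iL and 206, 212, 150 and 146 CPM in Mta123KO labelled 48 h. Control labelled 48 h stood below the other 3 groups, the change in Mta123KO was -0.13 ± 0.12 (SE), and the interaction was 2.11 ± 0.17 (SE), adjusted p = 7.4e-07. Of 16 cadherin-switch and mesenchymal genes 4 were called above and 1 below 0 (31.2%, beside 13.0% of all genes). Among them the tight junction gene Cldn6 was lost at 7.78 and 2.28 CPM in Control and 67.1 and 85.6 CPM in Mta123KO, and Zeb2, a repressor of epithelial genes, was lost at 9.96 and 0.776 CPM in Control and 1.68 and 1.08 CPM in Mta123KO (interaction 3.02 ± 0.41 (SE), adjusted p = 8.96e-05). Cdh2 was not called (interaction 0.23 ± 0.27 (SE), adjusted p = 0.605). The list thus holds lost responses of epithelial and of mesenchymal genes, with an interaction of the same sign.

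Of 24 imprinted genes 8 were called above and 1 below 0 (37.5%, beside 13.0% of all genes), of which 7 were lost, 1 reversed and 1 weakened, and 5 were also called with lines summed, with median changes of -1.63 in Control and -0.04 in Mta123KO. Meg3, the maternally expressed long non-coding RNA of the Dlk1-Dio3 region (chromosome 12, 109541001 to 109571726, plus strand, GRCm38), was at 260, 235, 232 and 206 CPM in Control labelled 2iL, 81, 90.3, 60.1 and 68.7 CPM in Control labelled 48 h, 49.9, 51.3, 51.6 and 53.4 CPM in Mta123KO labelled 2iL and 124, 110, 86.5 and 95.8 CPM in Mta123KO labelled 48 h. It was highest in every Control library labelled 2iL and lowest in Mta123KO labelled 2iL, so the order of the cultures was opposite in the genotypes, and the interaction was 2.65 ± 0.18 (SE), adjusted p = 1.44e-07. The neighbouring non-coding RNAs Rian (683 and 235 CPM in Control, 159 and 300 CPM in Mta123KO, interaction 2.45 ± 0.17 (SE), adjusted p = 2.44e-07) and Mirg (180 and 58.5 and 47.2 and 81.3 CPM, 2.41 ± 0.22 (SE), adjusted p = 2.5e-06) and the retrotransposon-derived Rtl1 (86.4 and 22.5 and 19.5 and 29.1 CPM, 2.52 ± 0.17 (SE), adjusted p = 1.55e-07) moved with it. All genes of the region, from the start of Dlk1 to the end of Dio3 (chromosome 12, 109452823 to 110281097, GRCm38), were therefore examined, a choice made after these values were seen. Of 93 genes tested there, 86 were called (92.5%), 85 above and 1 below 0, with 63 lost and 21 reversed responses, and 50 were also called with lines summed. Of the 105 reversed genes in the genome, 21 lay in this region, and 57 of the 93 were annotated as miRNAs and 23 as snoRNAs. These small genes lie inside or beside the long transcripts, and reads of the long transcripts and of the small genes cannot be told apart in these counts, so they are not independent of Meg3, Rian and Mirg. Dio3, a thyroid hormone deiodinase gene at the far end, was the one below 0 (0.31 CPM and 3.45 CPM in Control, 2.03 CPM and 4.42 CPM in Mta123KO, interaction -2.35 ± 0.65 (SE), adjusted p = 0.016). It was not called with lines summed (adjusted p = 0.227), its changes overlapped between the genotypes, and the change of Dio3 was 0.49 in Mta123KO line 1 and 2.36 in line 2.

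Outside this region, Plagl1, a growth-suppressing zinc finger gene, was weakened (1.82 and 114 CPM in Control and 23.9 and 159 CPM in Mta123KO, interaction -3.24 ± 0.51 (SE), adjusted p = 0.000326), and Nnat was lost (10.8 and 2.72 and 44 and 38.5 CPM, interaction 1.80 ± 0.21 (SE), adjusted p = 1.91e-05). Cdkn1c, the CDK inhibitor p57, was at 19.6, 22.9, 33 and 38.6 CPM in Control labelled 2iL, 2.73, 2.84, 2.13 and 2.33 CPM in Control labelled 48 h, 37.4, 52.5, 6.68 and 6.2 CPM in Mta123KO labelled 2iL and 92.1, 101, 4.36 and 3.98 CPM in Mta123KO labelled 48 h. The Mta123KO lines differed, line 1 being higher under the 48 h label and line 2 lower, and the interaction of 4.47 ± 1.30 (SE), adjusted p = 0.0207 was not called with lines summed (adjusted p = 0.278).

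In the lists of antigen presentation, Notch, clustered protocadherin and potassium channel genes, most of the called members were above 0 and lost, although at most 50% of the members of any of them were called. The lowest share was 30.3%, for potassium channel genes, beside 13.0% of all genes. H2-K1, a class I molecule that presents peptides to T cells, was at 44.6, 51.2, 40.9 and 45 CPM in Control labelled 2iL, 9.61, 11.6, 7.88 and 9.12 CPM in Control labelled 48 h, 34.4, 35.3, 46.4 and 44.5 CPM in Mta123KO labelled 2iL and 41.7, 47.1, 42.9 and 44.4 CPM in Mta123KO labelled 48 h. Control labelled 48 h stood below the other 3 groups, and the interaction was 2.38 ± 0.17 (SE), adjusted p = 2.66e-07. H2-D1, the other classical class I gene tested, was likewise lowest in Control labelled 48 h (13.7 and 5.05 CPM in Control, 12.7 and 14.6 CPM in Mta123KO, interaction 1.63 ± 0.14 (SE), adjusted p = 1.24e-06). Psmb9, an immunoproteasome subunit, was also lost (interaction 2.61 ± 0.31 (SE), adjusted p = 2.58e-05), and of 18 interferon and antigen presentation genes 6 were called above and 1 below 0, of which 5 were lost. Of 16 Notch pathway genes 7 were called above and 1 below 0, 6 lost and 2 weakened, but 2 were called with lines summed and 3 above and 1 below 0 with spike-in scaling. The 2 that were called with lines summed were the ligand gene Dll1 (weakened, 33.3 and 0.329 CPM in Control and 13.4 and 2.88 CPM in Mta123KO, interaction 4.43 ± 0.54 (SE), adjusted p = 3.01e-05) and the transcription factor gene Hes6 (lost, 53.7 and 6.18 and 15.6 and 10.8 CPM, 2.59 ± 0.23 (SE), adjusted p = 1.84e-06). Of 37 clustered protocadherin genes 14 were called, all above 0 and all lost, and all were of the alpha cluster. Members of that cluster share their constant exons and had nearly the same levels (0.835 and 0.0942 CPM in Control and 0.13 and 0.142 CPM in Mta123KO for Pcdha1), so they are not 14 separate observations, and 2 were called with lines summed. Of 66 potassium channel genes 15 were called above and 5 below 0, with 13 lost, and 3 were called with lines summed.

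Called members were mostly below 0 in the lists of Nrf2 targets, metallothioneins and LIF receptor and Stat3 targets, and mostly above 0 among glycolysis genes. The shares called were 50%, 75%, 46.7% and 42.9% in this order, beside 13.0% of all genes. With lines summed, 0 of the called metallothionein, 4 of the called LIF receptor and Stat3 target and 1 of the called glycolysis genes stayed called. That glycolysis gene was below 0, against the direction of most called members of its list. Of 12 Nrf2 target genes, which encode antioxidant enzymes, 6 were called, all below 0, and 2 were also called with lines summed. Gsta3, a glutathione transferase, was weakened (0.581 and 11.3 CPM in Control and 9.17 and 19.3 CPM in Mta123KO, interaction -3.20 ± 0.28 (SE), adjusted p = 1.31e-06) and Gstm1 was lost (14.8 and 35.7 and 10.7 and 11.1 CPM, -1.22 ± 0.13 (SE), adjusted p = 1.04e-05). Of 4 metallothionein genes 3 were called below 0, 1 lost and 2 with neither change called, and the latter include Mt1 (265 and 477 CPM in Control and 731 and 424 CPM in Mta123KO, interaction -1.63 ± 0.23 (SE), adjusted p = 0.000101, adjusted p = 0.0527 with lines summed). Of 15 LIF receptor and Stat3 target genes, 3 of which are also naive factors named above, 6 were called below and 1 above 0. Stat3 itself was classed as lost, though its mean was still higher under the 48 h label in Mta123KO (23 and 103 CPM in Control and 65.3 and 118 CPM in Mta123KO, interaction -1.31 ± 0.14 (SE), adjusted p = 7.78e-06). Socs3, the feedback inhibitor of this pathway, was not called (interaction 0.24 ± 0.21 (SE), adjusted p = 0.469). Of 21 glycolysis genes 7 were called above and 2 below 0. Hk1, the first enzyme of the pathway, lost its increase (18.6 and 93.5 CPM in Control and 37.5 and 33.1 CPM in Mta123KO, interaction -2.51 ± 0.24 (SE), adjusted p = 2.96e-06), whereas the lactate dehydrogenase gene Ldha lost its decrease (552 and 276 and 305 and 391 CPM, interaction 1.36 ± 0.28 (SE), adjusted p = 0.00266). Of 15 p53 target genes 2 were called below 0, Mdm2 (gained, 98.6 and 109 CPM in Control and 431 and 205 CPM in Mta123KO, -1.21 ± 0.27 (SE), adjusted p = 0.00456) and Phlda3 (lost, -2.04 ± 0.26 (SE), adjusted p = 4.54e-05). The share called among p53 targets, 13.3%, was close to the 13.0% of all genes.

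**Figure D4:**
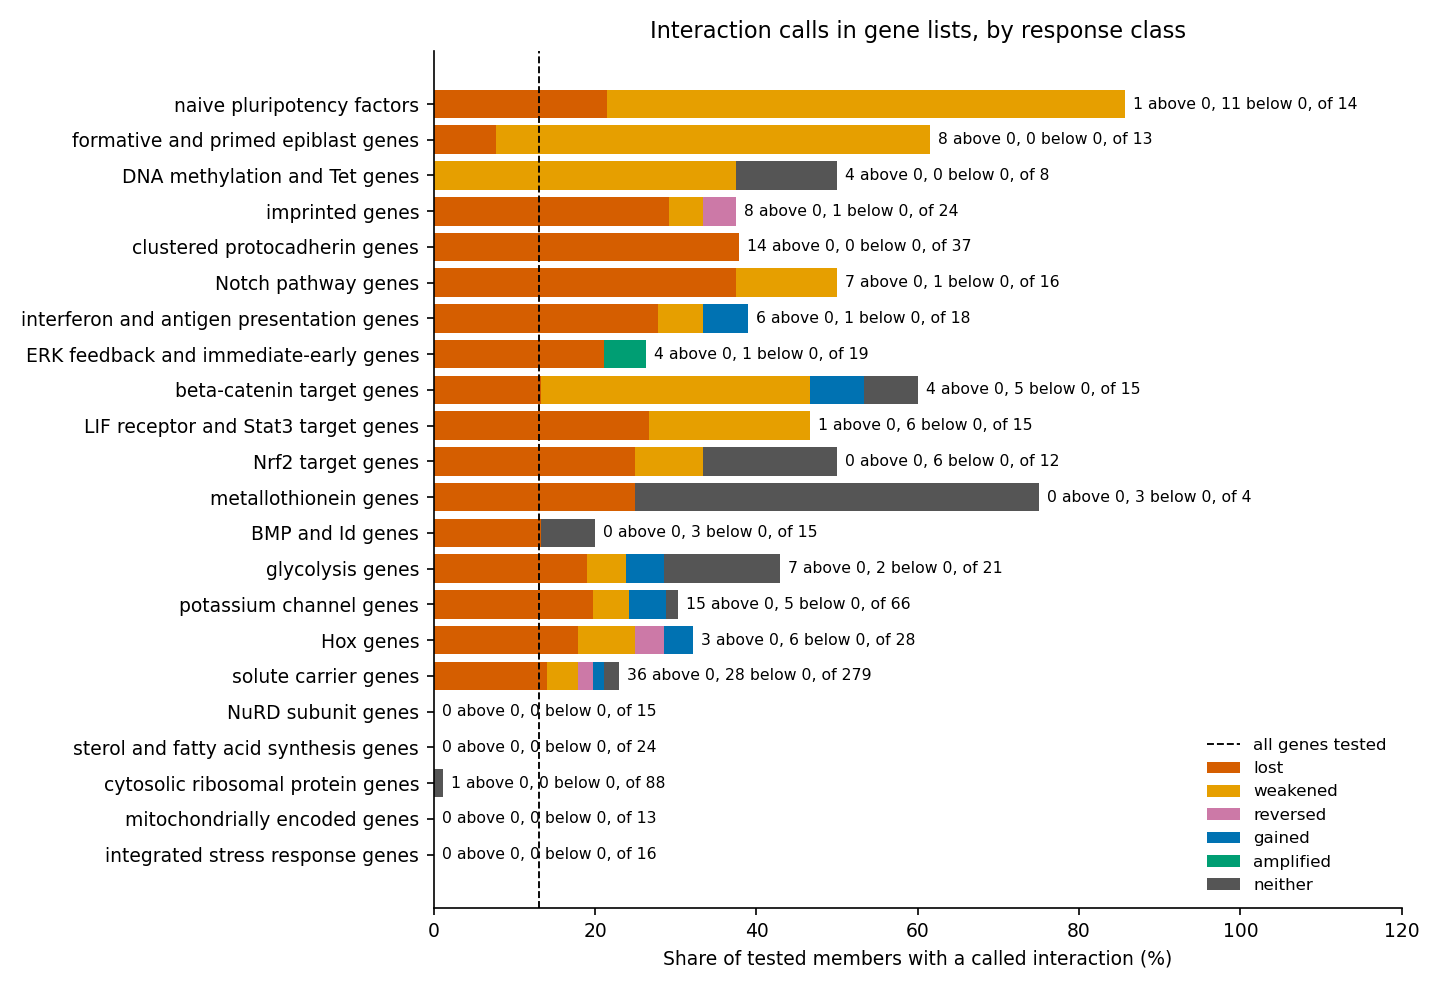
Share of tested members with a called interaction (horizontal axis, percent) in 22 of the 46 lists, divided by response class, with the counts above and below 0 beside each bar and the dashed line at 13.0%, the share over all genes tested. Weakened responses fill most of the bars of the naive and formative lists, lost responses that of the clustered protocadherins, and NuRD subunit, sterol, mitochondrial and integrated stress response genes have no bar.

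Reversed responses were found in both directions. Sema6a, a transmembrane semaphorin that guides axons (chromosome 18, 47235598 to 47368870, minus strand, GRCm38), was at 64.9, 48.3, 49.1 and 45.8 CPM in Control labelled 2iL, 1.97, 1.03, 2.51 and 2.5 CPM in Control labelled 48 h, 8.66, 9.91, 8.6 and 6.72 CPM in Mta123KO labelled 2iL and 20.9, 20.6, 15.8 and 14.4 CPM in Mta123KO labelled 48 h. Every Control library labelled 48 h was below, and every Mta123KO library labelled 48 h above, the libraries labelled 2iL of its genotype, and the interaction was 5.77 ± 0.32 (SE), adjusted p = 3.2e-08. Kif1a, the kinesin that carries synaptic vesicle precursors, was at 12.4, 10.1, 8.72 and 8.38 CPM in Control labelled 2iL, 1.46, 1.05, 1.01 and 0.723 CPM in Control labelled 48 h, 29, 26.9, 34.2 and 27.3 CPM in Mta123KO labelled 2iL and 67.6, 60.1, 76.3 and 65.5 CPM in Mta123KO labelled 48 h. All 8 Mta123KO libraries lay above all 8 Control libraries, and the culture change had opposite signs, with an interaction of 4.40 ± 0.24 (SE), adjusted p = 3.2e-08. St8sia5, a ganglioside sialyltransferase (0.502 and 0.0665 CPM in Control, 0.929 and 2.26 CPM in Mta123KO, interaction 4.14 ± 0.53 (SE), adjusted p = 5.13e-05), and Sphkap, an A-kinase anchoring protein (0.324 and 0.0616 and 0.494 and 2.29 CPM, 4.55 ± 0.63 (SE), adjusted p = 0.000104), were the other 2 named above 0. Below 0, Lrrc15, a leucine-rich repeat membrane protein, was at 0.06, 0.249, 0.352 and 0.155 CPM in Control labelled 2iL, 18.2, 13.9, 17.1 and 16.1 CPM in Control labelled 48 h, 53.5, 61.6, 14.6 and 24.4 CPM in Mta123KO labelled 2iL and 21.1, 24.2, 8.56 and 9.25 CPM in Mta123KO labelled 48 h. It was nearly absent from Control labelled 2iL and had its highest mean in Mta123KO labelled 2iL. There only line 1 (53.5 and 61.6 CPM) stood apart, while line 2 (14.6 and 24.4 CPM) overlapped the groups labelled 48 h. Those groups also overlapped each other, and the interaction of Lrrc15 was -7.59 ± 0.73 (SE), adjusted p = 3.89e-06. Eva1c (0.144 and 1.35 CPM in Control, 4.79 and 0.865 CPM in Mta123KO, -5.69 ± 0.68 (SE), adjusted p = 2.44e-05), the carboxypeptidase gene Cpvl (0.245 and 3.35 and 2.71 and 1.18 CPM, -4.95 ± 0.39 (SE), adjusted p = 6.51e-07) and the Ras-like gene Rerg (0.254 and 2.4 and 1.05 and 0.458 CPM, -4.43 ± 0.59 (SE), adjusted p = 7.34e-05) were likewise lowest in Control labelled 2iL. Of 279 solute carrier genes 5 were reversed, among 36 called above and 28 below 0 (22.9%, beside 13.0% of all genes). Of the called solute carrier genes, 12 stayed called with lines summed.

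**Figure D5:**
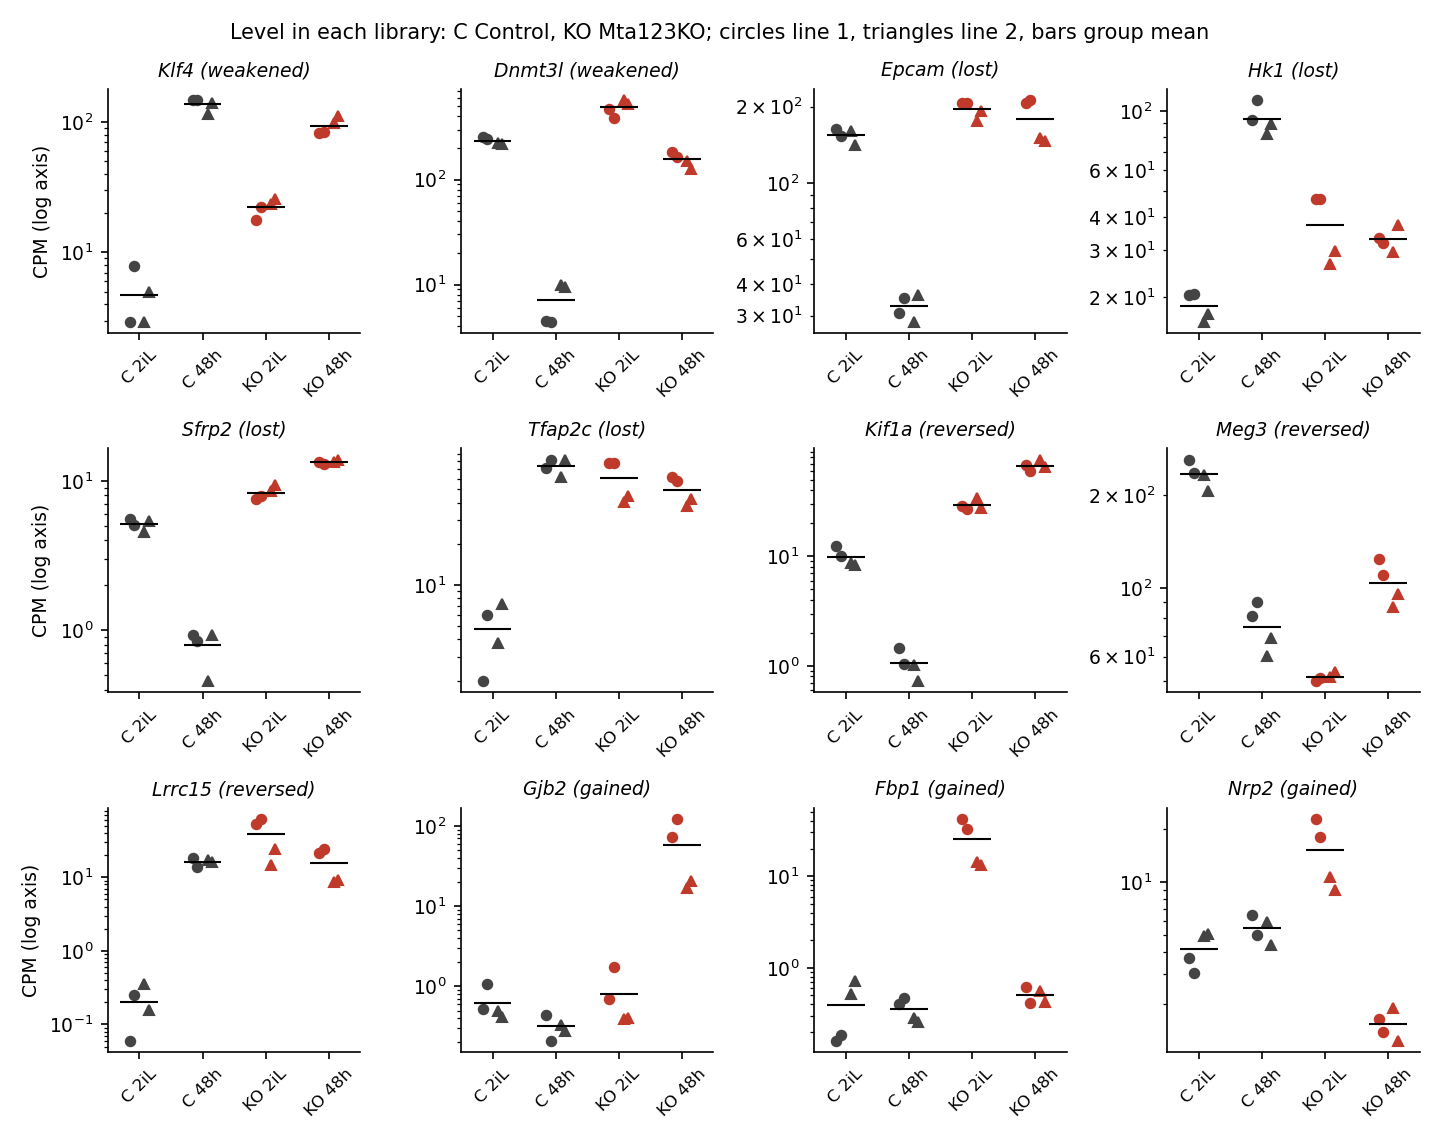
Level in each of the 16 libraries (vertical axes, CPM on a log scale that differs between panels) of 12 genes in Control (grey) and Mta123KO (red), with circles for line 1, triangles for line 2 and bars for the group mean. Epcam and Sfrp2 are low only in Control labelled 48 h, Kif1a and Meg3 change in opposite directions in the genotypes, and Gjb2 and Fbp1 are above 2 CPM in 1 Mta123KO group each.

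Gained responses were fewer than lost ones and 28 of 251 were called with lines summed. A gained response means only that the Control change was not called, and in 173 of the 251 the estimated Control change had the opposite sign. Gjb2, the gap junction protein connexin 26 (chromosome 14, 57098600 to 57104702, minus strand, GRCm38), was at 0.52, 1.08, 0.497 and 0.421 CPM in Control labelled 2iL, 0.441, 0.21, 0.335 and 0.28 CPM in Control labelled 48 h, 0.701, 1.75, 0.389 and 0.409 CPM in Mta123KO labelled 2iL and 72.4, 122, 16.8 and 20.9 CPM in Mta123KO labelled 48 h. It was high only in Mta123KO labelled 48 h among the 4 groups, and the interaction was 7.11 ± 1.01 (SE), adjusted p = 0.000124. Fgfrl1, an FGF receptor without a kinase domain (9.9 and 7.77 CPM in Control, 5.31 and 23.8 CPM in Mta123KO, 2.51 ± 0.30 (SE), adjusted p = 2.25e-05), the Wnt receptor gene Fzd9 (4.63 and 2.63 and 2.73 and 7.53 CPM, 2.28 ± 0.22 (SE), adjusted p = 3.73e-06) and Trim50 (0.369 and 0.49 and 0.596 and 4.62 CPM, 2.53 ± 0.38 (SE), adjusted p = 0.000183) also gained a change above 0. Fbp1, the gluconeogenic fructose bisphosphatase, was at 0.16, 0.187, 0.518 and 0.71 CPM in Control labelled 2iL, 0.406, 0.473, 0.287 and 0.257 CPM in Control labelled 48 h, 42, 33.1, 14.2 and 13.4 CPM in Mta123KO labelled 2iL and 0.624, 0.418, 0.559 and 0.42 CPM in Mta123KO labelled 48 h. Its expression was confined, among these groups, to Mta123KO labelled 2iL at more than 1 CPM, and the interaction was -5.54 ± 0.70 (SE), adjusted p = 4.28e-05. Nrp2, a semaphorin and Vegf co-receptor, gained a decrease (4.16 and 5.42 CPM in Control, 15.1 and 1.55 CPM in Mta123KO, interaction -3.68 ± 0.39 (SE), adjusted p = 8.17e-06), as did Kirrel2 (11.4 and 20.3 and 5.08 and 0.764 CPM, -3.58 ± 0.38 (SE), adjusted p = 8.47e-06) and Fam167a (1.63 and 2.45 and 1.77 and 0.469 CPM, -2.48 ± 0.27 (SE), adjusted p = 1.25e-05). Hcn4, the pacemaker channel gene, was at 0.46, 0.603, 0.932 and 0.776 CPM in Control labelled 2iL, 0.406, 0.421, 0.647 and 0.816 CPM in Control labelled 48 h, 18.2, 21.5, 6.34 and 6.78 CPM in Mta123KO labelled 2iL and 3.07, 3.21, 2.19 and 2.76 CPM in Mta123KO labelled 48 h. The interaction was -1.95 ± 0.56 (SE), adjusted p = 0.0187, and it was not called with lines summed (adjusted p = 0.252) or without either Control line. Of 36 collagen genes 5 were called above and 3 below 0 (22.2%, beside 13.0% of all genes), and Col5a2 (interaction 1.82 ± 0.30 (SE), adjusted p = 0.000496), Col11a1 (2.00 ± 0.55 (SE), adjusted p = 0.0149) and Col1a1 (-2.17 ± 0.33 (SE), adjusted p = 0.000238) were gained.

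The genes named for large weakened responses were near 0 in 1 Control group. Enpp2, which encodes autotaxin, was at 21.4 and 0.037 CPM in Control and 0.722 and 0.183 CPM in Mta123KO, with at most 3 counts in any library of Control labelled 48 h. Ccdc194 (13.4 and 0.0599 and 6.12 and 1.28 CPM, interaction 5.57 ± 0.59 (SE), adjusted p = 9.16e-06), Fndc3c1 (15.5 and 0.115 and 3.25 and 0.804 CPM, 5.01 ± 0.43 (SE), adjusted p = 1.15e-06) and Ms4a4d (2.95 and 0.0162 and 1.28 and 0.23 CPM) had the same order. Below 0 stood Serpinb1a (0.0377 and 7.28 CPM in Control and 0.0711 and 0.484 CPM in Mta123KO, interaction -4.83 ± 0.79 (SE), adjusted p = 0.000437), the T cell receptor component Cd3g (0.0156 and 3.51 and 0.505 and 1.59 CPM) and the channel subunit Cnga4 (0.0205 and 5.54 and 0.175 and 1.05 CPM). The last 2 held at most 3 counts in every library of Control labelled 2iL, so their fitted interactions depend on the prior count. None of the 15 amplified genes met the conditions for being named by class, one of which was a call with lines summed.

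Genes downstream of the 2 inhibitors were examined separately, since 2iL blocks Mek, and with it ERK signalling, and blocks Gsk3, which stabilises beta-catenin. In Control, 6 beta-catenin targets were called higher and 2 lower under the 48 h label. Of the ERK feedback and immediate-early genes, 0 were called higher and 10 lower under that label. Like the naive markers, both lists thus mostly go against the labels, and the signs below should be read with this in mind. Of 15 beta-catenin target genes 4 were called above and 5 below 0 (60%, beside 13.0% of all genes), with 5 weakened, 2 lost and 1 gained, and 2 were also called with lines summed. Sp5, a zinc finger gene directly induced by Wnt signalling, was at 0.12, 0.0208, 0.0621 and 0.0887 CPM in Control labelled 2iL, 35.2, 29, 27.1 and 33.3 CPM in Control labelled 48 h, 0.255, 0.295, 0.17 and 0.151 CPM in Mta123KO labelled 2iL and 10.8, 11.1, 10.6 and 11.5 CPM in Mta123KO labelled 48 h. It was under 1 CPM in all libraries labelled 2iL and, under the 48 h label, lower in every Mta123KO library than in every Control library, with an interaction of -3.04 ± 0.36 (SE), adjusted p = 2.54e-05. Its promoter is printed because it was the only 1 of 9 listed beta-catenin targets with a RefSeq promoter entry to hold the letters CTTTGAT, a core of the site bound by Tcf and Lef factors, within 250 bases before the start. The motif was searched on both strands and 3.23% of 27025 promoters hold it. The stretch is chr2:70474673-70474922 on the plus strand of GRCm38.p6 (RefSeq), and the capitals mark the match, whose first base lies at -104 from the start.
Sp5: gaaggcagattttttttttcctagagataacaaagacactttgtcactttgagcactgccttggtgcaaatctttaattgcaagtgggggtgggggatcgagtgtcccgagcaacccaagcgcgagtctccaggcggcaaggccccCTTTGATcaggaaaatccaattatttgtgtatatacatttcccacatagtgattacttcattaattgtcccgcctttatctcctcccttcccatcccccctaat
Axin2, the negative-feedback target, was weakened (7.94 and 64.2 CPM in Control, 14.3 and 49.7 CPM in Mta123KO, interaction -1.22 ± 0.39 (SE), adjusted p = 0.0319), as were Cdx1 (0.79 and 67.9 and 10.3 and 47.2 CPM, -4.23 ± 0.70 (SE), adjusted p = 0.00045) and the Wnt deacylase gene Notum (3.75 and 45.1 and 14.7 and 34.8 CPM, -2.35 ± 0.50 (SE), adjusted p = 0.00299). Nkd1, another feedback inhibitor, was lost with the opposite sign (3.89 and 1.55 CPM in Control, 3.38 and 6.66 CPM in Mta123KO, 2.31 ± 0.27 (SE), adjusted p = 2e-05). Lgr5, the R-spondin receptor gene, was gained, at 0.26, 0.0831, 0.559 and 0.377 CPM in Control labelled 2iL, 0.0529, 0.289, 0.0719 and 0.14 CPM in Control labelled 48 h, 0.149, 0.0907, 0.194 and 0.194 CPM in Mta123KO labelled 2iL and 3.37, 6.53, 0.425 and 0.785 CPM in Mta123KO labelled 48 h. The interaction of Lgr5 was 5.38 ± 1.18 (SE), adjusted p = 0.00379, and it was not called with lines summed (adjusted p = 0.106). Lef1 was weakened (interaction 2.93 ± 0.76 (SE), adjusted p = 0.011). Among 24 Wnt ligands and secreted inhibitors 3 were called above and 3 below 0 (25%), including Wnt8a (weakened, 3.47 ± 0.65 (SE), adjusted p = 0.00121) and Sfrp1 (weakened, -1.36 ± 0.16 (SE), adjusted p = 1.88e-05) beside Sfrp2 described above.

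Of 19 ERK feedback and immediate-early genes 4 were called above and 1 below 0 (26.3%, beside 13.0% of all genes), 4 lost and 1 amplified, and 2 were called with lines summed. The list's median interaction was 0.17 and turned to -0.05 with spike-in scaling. Dusp5, a nuclear phosphatase that inactivates ERK, was lost, at 15.9, 15.6, 14.6 and 17.2 CPM in Control labelled 2iL, 3.39, 3.76, 3.88 and 4.97 CPM in Control labelled 48 h, 23.1, 24.6, 17.1 and 16.8 CPM in Mta123KO labelled 2iL and 13.2, 16.3, 12.6 and 8.4 CPM in Mta123KO labelled 48 h. Each Control library labelled 48 h was below each library of the other 3 groups, and the interaction was 1.29 ± 0.26 (SE), adjusted p = 0.00184, not called with lines summed (adjusted p = 0.105). Its promoter is shown since it was the only 1 of 12 matched genes of the list with the CArG box, the site of serum response factor, within 250 bases before the start, which 1.4% of promoters hold on either strand. The stretch is chr19:53528895-53529144 on the plus strand of GRCm38.p6 (RefSeq), and capitals mark the 2 matches, which begin at -82 and -72.
Dusp5: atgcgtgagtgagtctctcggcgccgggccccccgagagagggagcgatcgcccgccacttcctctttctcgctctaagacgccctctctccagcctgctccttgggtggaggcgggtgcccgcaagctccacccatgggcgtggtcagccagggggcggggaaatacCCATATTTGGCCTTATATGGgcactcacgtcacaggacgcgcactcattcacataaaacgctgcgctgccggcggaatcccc
Etv4, an ETS factor induced by FGF signalling, was amplified, at 90.4 and 39.9 CPM in Control and 48.1 and 7.27 CPM in Mta123KO (interaction -1.54 ± 0.39 (SE), adjusted p = 0.00924). Egr1, an immediate-early zinc finger gene, was at 15.1, 11.6, 13.1 and 9.4 CPM in Control labelled 2iL, 0.0705, 2.71, 0.168 and 2.22 CPM in Control labelled 48 h, 7.01, 7.39, 11.3 and 12.4 CPM in Mta123KO labelled 2iL and 2.5, 32, 1.77 and 23.1 CPM in Mta123KO labelled 48 h. The second library of each line labelled 48 h was 12.8 to 38.4 times the first, in both genotypes, so the interaction of 3.94 ± 1.22 (SE), adjusted p = 0.0296 stands beside a difference of this size between libraries of a line, whose part in the result was not tested. Myc was at 21.2, 21.4, 28.8 and 28.9 CPM in Control labelled 2iL, 4.09, 0.867, 5.53 and 1.54 CPM in Control labelled 48 h, 7.62, 7.82, 5.97 and 3.83 CPM in Mta123KO labelled 2iL and 5.25, 5.5, 2.28 and 1.7 CPM in Mta123KO labelled 48 h, and in Control labelled 48 h the second library of each line was 0.212 and 0.278 of the first. Its interaction was 2.27 ± 0.66 (SE), adjusted p = 0.0207, with an adjusted p of 0.136 with lines summed. Between libraries of a line, 0.696% to 2.5% of 18379 genes differed more than 2-fold.

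In further signalling lists 20% to 33.3% of the members tested were called, beside 13.0% of all genes. Of 15 BMP and Id genes 3 were called, all below 0, with Id4 (0.543 and 9.91 CPM in Control, 0.82 and 1.57 CPM in Mta123KO, interaction -3.26 ± 0.49 (SE), adjusted p = 0.000214) and Bmp7 (2.16 and 11.1 and 15.5 and 7.87 CPM, -3.34 ± 0.46 (SE), adjusted p = 9.54e-05) lost. Bmp4 was not called (-1.75 ± 0.70 (SE), adjusted p = 0.0861), but it was by DESeq2 and with spike-in scaling. Of 12 Nodal pathway genes 3 were called above and 1 below 0, among them Skil, a repressor of Smad signalling (lost, 1.78 ± 0.21 (SE), adjusted p = 2.24e-05), and Inhbb (lost, -3.10 ± 0.45 (SE), adjusted p = 0.000141). Nodal itself had an interaction of -0.68 ± 0.22 (SE), adjusted p = 0.0352, past the adjusted p but under the threshold of size. Of 12 FGF ligands and receptors Fgf15 (lost, 2.84 and 0.111 CPM in Control, 0.763 and 0.549 CPM in Mta123KO, 4.22 ± 0.55 (SE), adjusted p = 5.44e-05), Fgf10 (lost, -3.21 ± 0.70 (SE), adjusted p = 0.00352) and Fgfr3 (lost, 1.81 ± 0.56 (SE), adjusted p = 0.0289) were called. Of 12 retinoic acid response genes 2 were called above and 1 below 0, with Crabp2 weakened (2.08 ± 0.29 (SE), adjusted p = 0.000101) and Stra8 (1.36 ± 0.44 (SE), adjusted p = 0.0336) and the retinoic acid synthesis gene Aldh1a2 (-1.28 ± 0.29 (SE), adjusted p = 0.00474) lost.

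Among markers of other lineages, the share of members called was 33.3% for neural progenitor, 30% for mesendoderm, 21.4% for primitive and visceral endoderm, 18.8% for trophoblast, 17.6% for neuronal and 66.7% for fibroblast genes, beside 13.0% of all genes, and at most 2 members of each list were called with lines summed. The summed level of 4 trophoblast markers was 10.9 to 110 CPM in Mta123KO and at most 4.58 CPM in Control. That of 4 fibroblast markers (Col1a1, Col3a1, Thy1 and Postn) was 6.35 to 7.65 CPM in Mta123KO labelled 2iL and 2.46 to 5.45 CPM in Mta123KO labelled 48 h, against 1.06 to 1.6 CPM and 1.6 to 1.87 CPM in Control. By this sum every Mta123KO library lay above every Control library, but Col3a1 and Postn were under 1 CPM in all 4 groups. Dcn, of the fibroblast list but not among these 4, was higher in Control labelled 2iL, as given below. The part of the trophoblast and fibroblast markers in the results above was not tested. Of 16 trophoblast genes Tfap2c was lost, at 1.98, 6.01, 3.77 and 7.23 CPM in Control labelled 2iL, 71.8, 82.6, 61.7 and 82.5 CPM in Control labelled 48 h, 77.5, 78, 40.5 and 44.4 CPM in Mta123KO labelled 2iL and 62.1, 57.3, 37.6 and 42.2 CPM in Mta123KO labelled 48 h. The gene was low only in Control labelled 2iL among the 4 groups, and the interaction was -4.25 ± 0.45 (SE), adjusted p = 9.16e-06. Tead4 was weakened (2.64 and 22.6 CPM in Control, 19.1 and 38.3 CPM in Mta123KO, -2.09 ± 0.21 (SE), adjusted p = 4.46e-06), and Krt18 was called with neither change called (2.78 ± 0.96 (SE), adjusted p = 0.047), while Cdx2, Elf5 and Gata3 were not called (-1.12 ± 0.98 (SE), adjusted p = 0.461, -1.04 ± 0.67 (SE), adjusted p = 0.3 and -1.39 ± 0.82 (SE), adjusted p = 0.251). Without Mta123KO line 2, Cdx2 and Elf5 were called (-1.22, adjusted p = 0.0301 and -1.86, adjusted p = 0.0151), and with line as a block Gata3 was called (-1.31, adjusted p = 0.0388). Eomes, a T-box factor of mesendoderm and trophoblast, was lost (2.87 and 8.03 CPM in Control, 10.3 and 5.62 CPM in Mta123KO, -2.36 ± 0.31 (SE), adjusted p = 6.91e-05), and was not called with lines summed (adjusted p = 0.0525). Of 10 mesendoderm genes the other two called were Gsc (weakened, -2.76 ± 0.94 (SE), adjusted p = 0.045) and Mixl1 (neither change called, 1.08 ± 0.34 (SE), adjusted p = 0.0315). Gata6, a primitive endoderm factor, was lost, at 0.64, 1.52, 5.41 and 7.1 CPM in Control labelled 2iL, 0.0705, 0.315, 0.359 and 0.21 CPM in Control labelled 48 h, 0.68, 0.748, 0.364 and 0.452 CPM in Mta123KO labelled 2iL and 0.832, 0.858, 0.335 and 0.256 CPM in Mta123KO labelled 48 h. Control labelled 2iL had the highest values but also spread over a wide range, the interaction was 3.98 ± 0.97 (SE), adjusted p = 0.00736, and it was not called with lines summed (adjusted p = 0.153), without Control line 2 or without Mta123KO line 1. Dab2 was lost (4.83 and 0.895 CPM in Control, 13.2 and 14.7 CPM in Mta123KO, 2.59 ± 0.29 (SE), adjusted p = 1.36e-05) and Sox7 gained (-2.63 ± 0.56 (SE), adjusted p = 0.00316). Of 12 neural progenitor genes 2 were called in each direction, with Pou3f3 reversed (0.225 and 1.09 CPM in Control, 2.19 and 0.977 CPM in Mta123KO, -3.42 ± 0.49 (SE), adjusted p = 0.000122), Sox21 lost (-2.14 ± 0.30 (SE), adjusted p = 0.000116) and Zic1 (2.25 ± 0.62 (SE), adjusted p = 0.0158) and Sox1 (1.5 ± 0.37 (SE), adjusted p = 0.00859) weakened. Pax6 (1.20 ± 0.51 (SE), adjusted p = 0.104) and Nes (0.51 ± 0.19 (SE), adjusted p = 0.0671) were not called, except Pax6 with line as a block (1.25, adjusted p = 0.0456). Of 17 neuronal genes 3 were called above 0. Of 6 fibroblast genes 1 was called above and 3 below 0, the latter being Pdgfrb (lost, -2.97 ± 0.75 (SE), adjusted p = 0.00896), Fbln1 (lost, -1.31 ± 0.19 (SE), adjusted p = 0.000143) and Col1a1 described above. Dcn, a proteoglycan gene and the one above 0, was at 2.42 and 0 CPM in Control and 0.0942 and 0.0726 CPM in Mta123KO and Hoxc12 at 0 and 2.11 and 0.093 and 2.64 CPM, each with 1 Control group at 0 counts.

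Lists of housekeeping and complex genes had few or 0 calls, beside 13.0% of all genes tested. In lists of 8 or 10 genes that share would also give few calls. By edgeR, 0 of 15 NuRD subunit genes, 0 of 24 sterol and fatty acid synthesis genes, 0 of 13 mitochondrially encoded genes, 0 of 16 integrated stress response genes and 0 of 16 lysosome genes were called, while 2, 5, 1, 2 and 4 of them had an unadjusted p under 0.05 and 0 were called by DESeq2. Of 88 cytosolic ribosomal protein genes 1 was called, the paralog Rpl39l (1.40 ± 0.21 (SE), adjusted p = 0.000183). Of 8 two-cell-stage genes 0 were called, 1 at an unadjusted p under 0.05 and 1 by DESeq2, although their median interaction was -2 and 7 of the 8 changed in Mta123KO. Of 10 Polycomb repressive complex 2 genes Eed was called, below 0 (-1.06 ± 0.12 (SE), adjusted p = 1.44e-05). This share of 10% was near the 13.0% of all genes, and with spike-in scaling 4 of the list were called below 0.

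Of the remaining lists, 5 of 20 muscle and contractile genes were called above and 4 below 0, with Myl9 lost (3.1 and 0.162 CPM in Control, 13.9 and 17.1 CPM in Mta123KO, 4.53 ± 0.61 (SE), adjusted p = 8.08e-05) and Tnni1 weakened (-3.48 ± 0.36 (SE), adjusted p = 6.7e-06). Of 28 Hox genes 3 were called above and 6 below 0. Of 22 keratin genes 2 were called in each direction, of 14 germline and meiosis genes 3 above 0, including Tdrd1 (lost, 2.99 ± 0.28 (SE), adjusted p = 2.92e-06), and of 13 hypoxia response genes 2 in each direction, all lost, including the kinase gene Pdk1 (307 and 30 CPM in Control, 85.9 and 43.1 CPM in Mta123KO, 2.36 ± 0.38 (SE), adjusted p = 0.000334). Of 12 D cyclins and CDK inhibitors 2 were called above and 1 below 0, with Ccnd1 (1.18 ± 0.21 (SE), adjusted p = 0.000932) and Ccnd3 (-1.06 ± 0.31 (SE), adjusted p = 0.0218) in opposite directions, and of 9 olfactory receptor genes 2 were called below 0. With lines summed, 3 of the called muscle and contractile, 2 of the keratin and 1 of the germline and meiosis genes stayed called. For Hox, hypoxia response, D cyclin and CDK inhibitor, and olfactory receptor genes the number was 0. The share called in these lists was 18.2% (keratin genes) to 45% (muscle and contractile genes), beside 13.0% of all genes tested. No list was tested against the rest.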

How the data were processed

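Libraries were made, per the methods of the study, from total RNA with either of the kits NEXTflex Rapid Directional and SMARTer Stranded Pico, and were sequenced paired-end. The authors trimmed reads with Trim Galore!, aligned them to GRCm38/mm10 with Tophat and deposited counts of reads per gene, made with featureCounts on Ensembl 86 without normalization. The handling of multi-mapping reads and the strand setting of counting are not given in the sources used here, so overlapping and near-identical genes are uncertain. The deposited counts covered 48709 genes, 48349 of them matched to GENCODE vM21 for symbols and coordinates, and 92 spike-in RNAs.

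Groups and replicate numbers come from the labels, which mapped every library, and the first part of the number was read as the line. Means of the 4 groups were fitted to the counts by the quasi-likelihood method of edgeR 4.0.16 after filterByExpr and TMM scaling, in R 4.3.3 with limma 3.58.1. Calls required an absolute log2 value above 1 and a p under 0.05 after Benjamini-Hochberg adjustment. Totals of 37855790 to 57602285 counts make counting error small except for genes under about 1 CPM. Culture distances used log2 CPM with a prior count of 2 and an exact permutation test. In simulated counts for this comparison (22645 genes), edgeR called 87% of 100 genes planted at an absolute log2 interaction of 2 and 94% of 100 at 3, with 6 false calls. The simulated libraries were independent, with no effect of line, and no gene of low mean count was planted. These figures therefore give no error rate for libraries that share a line, or for genes of low count.

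The members, lists and tests were chosen with earlier results of these data known. Named were the genes the study names, up to 4 genes per class and direction with the largest absolute interaction, and the called and defining list members with the largest absolute interactions. A gene named by class had to be protein-coding, be called in both the single-library and the summed-line fits, reach 1 CPM in a group and have changes that did not overlap between genotypes. Axin2, Col11a1, Col5a2, Dusp5, H2-D1, Ldha, Mirg, Nkd1, Nnat, Notum, Nr0b1, Pou3f1, Rian, Rtl1, Sfrp1, Stat3 and the region from Dlk1 to Dio3 fall outside this rule and were added after their values were seen. A few genes that the rule or the lists would include are not reported here and were left out of the counts over lists. Alternatives were DESeq2 1.42.0, no filter, spike-in scaling, a replicate block, a block for line, summed lines, no fold threshold, glmTreat, per-genotype fits, prior counts, exchanged cultures and leaving out each replicate number or line. Counting only genes of at least 1 CPM was added after seeing the data. Python 3.11.15 (numpy 2.4.6, pandas 2.3.3, scipy 1.17.1, matplotlib 3.10.9) was used for the remaining steps.

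Same-numbered libraries of one genotype deviated together across cultures (correlations of 0.221 to 0.289 in Control and 0.495 to 0.541 in Mta123KO), while between genotypes they did not (-0.226 to 0.0194). For the other library of the same line the correlations were 0.134 to 0.18 in Control and 0.516 to 0.542 in Mta123KO. Over all genes, the numbers thus mark lines within a genotype, and in Control also libraries, and like numbers did not correlate between genotypes. These deviations include the difference between lines, so they cannot exclude an effect on some genes shared by like library numbers. Under the 48 h label, library 2 over library 1 of lines 1 and 2 was 0.69 and 0.64 in Control and 0.711 and 0.642 in Mta123KO for Etv1. Egr1 likewise had ratios of one direction in both genotypes (38.4 and 13.2, 12.8 and 13.1). For Ier3 they were 1.96 and 2.04 in Control and 0.945 and 0.998 in Mta123KO. Between genotypes, libraries of unlike line number correlated at 0.0138 to 0.258, and the reason was not tested.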

Additional observations from a re-analysis of the deposited data

Results flagged for a closer look

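The culture change differed between the genotypes by the test of the interaction itself for 1759 genes above and 1234 below 0. The root mean square culture change was -0.382 log2 CPM apart (Mta123KO minus Control, exact permutation p = 0.0286). That p is the smallest for 4 against 4 numbered pairs, which come from 2 lines per genotype and are not independent of line. By the same edgeR test, genes that the study names differed between genotypes by interactions of -1.69 for Esrrb, -2.81 for Klf4, -2.36 for Eomes, -1.95 for Hcn4, 3.98 for Gata6 and 3.38 for Sfrp2. Lost genes had interactions of 6.85 for Pcdh18, 5.28 for Zfp608, 5.21 for Lrrc3, -6.69 for Serpinb6b, -5.94 for Tlx2, -5.23 for Rbm24 and -4.8 for Ngfr. Reversed genes had 5.77 for Sema6a, 4.55 for Sphkap, 4.40 for Kif1a, 4.14 for St8sia5, -7.59 for Lrrc15, -5.69 for Eva1c, -4.95 for Cpvl and -4.43 for Rerg. Gained genes had 7.11 for Gjb2, 2.53 for Trim50, 2.51 for Fgfrl1, 2.28 for Fzd9, -5.54 for Fbp1, -3.68 for Nrp2, -3.58 for Kirrel2 and -2.48 for Fam167a. Weakened genes had 7.03 for Enpp2, 5.57 for Ccdc194, 5.01 for Fndc3c1, 4.8 for Ms4a4d, -5.93 for Cd3g, -5.33 for Cnga4 and -4.83 for Serpinb1a. The fitted values of Pcdh18, Serpinb6b, Tlx2, Enpp2, Ms4a4d, Cd3g and Cnga4 rest on a group with at most 3 counts in every library and depend on the prior count.

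A single library stood apart from the other 3 of its group in 11 of 222 groups examined over 55 named genes, and chance sets apart about 1 group in 20. Control labelled 2iL held most of these. Sema6a was at 64.9 CPM in library 1_1, where the number gives the line and then the library, Nobox at 0.457, Serpinb6b at 0.0208, Sphkap at 0.125 and Gjb2 at 1.08 CPM in library 1_2, and Foxa2 at 0.488 CPM in library 2_2. In Control labelled 48 h, library 2_2 stood apart for Sox17 (0.653 CPM), Zfp608 (0.0466 CPM), Serpinb6b (1.24 CPM) and Fzd9 (3.1 CPM). In Mta123KO labelled 2iL, Cd3g was at 0.748 CPM in library 1_2.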

How the results depend on the processing

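The interaction was called for 1759 genes above and 1234 below 0, and these counts stayed within 1.5 times under DESeq2 (1885 and 1365), no low-count filter (1666 and 1260), spike-in scaling (1252 and 1554), a block for line (2281 and 1661) and counting only genes of at least 1 CPM (1370 and 1021), the last chosen after seeing the data. The replicate block gave 1859 and 1272, with 2905 genes (97.1%) of the 2993 shared. It changed no call among the 36 called named genes, and of the 19 not called it called Bmp4 (-1.89, adjusted p = 0.00195). With libraries of a line summed, 387 and 280 genes were called, with 516 lost, 13 reversed, 31 gained, 90 weakened and 0 amplified responses, fewer samples being fitted. Without a threshold on fold change the numbers were 2879 and 2427, with 2832, 442, 628, 1187 and 94 in the same order, and with glmTreat 627 and 445, with 826, 3, 54, 77 and 1. Culture changes fitted within each genotype left 59 reversed genes. The block for line gave 388 gained and 108 amplified genes, and spike-in scaling 6 amplified genes. Leaving out 1 replicate number or line gave 984 to 2181 genes above and 655 to 1590 below 0, 1018 to 2216 lost, 59 to 153 reversed, 152 to 440 gained, 264 to 498 weakened and 3 to 40 amplified. Control line 1 decided the lowest counts above 0, below 0, lost, reversed, gained and weakened, and Control line 2 gave 1142 above 0, 59 reversed, 158 gained and the lowest amplified count, 3. Replicate 1_1 left 59 reversed, 163 gained and 314 weakened genes and replicate 1_2 left 62 reversed genes, while leaving out Mta123KO line 2 gave the 440 gained and the 40 amplified and Mta123KO line 1 gave 32 amplified. Each replicate number left out gave 5 to 9 amplified genes. The cause of these shifts was not tested.

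The difference in culture distance was -0.397 with lines summed and -0.4 to -0.365 without 1 replicate number, where 3 against 3 cannot give a p below 0.1. Mta1, Cdh2 and Elf5, not called in the fit of 16 libraries, changed sign. Mta1 was at -0.13 with spike-in scaling and ranged from -0.0039 to 0.23 over the fits with a replicate number or line left out, Cdh2 was at -0.0007 with spike-in scaling and ranged from -0.12 to 0.47, and Elf5 ranged from -1.86 (without Mta123KO line 2, adjusted p = 0.0151) to 0.21. Other genes not called were called with a block for line (Bmp4, Foxa2, Gata3, Nobox, Pax6 and Sox17), by DESeq2 or spike-in scaling (Bmp4) or without 1 line (Bmp4, Cdx2, Foxa2, Nobox and Sox17). Of 36 called named genes, 36 stayed called under DESeq2, spike-in scaling, no filter and both blocks. With lines summed, 3 of the 6 named by the study stayed called and Eomes, Hcn4 and Gata6 did not, while the 30 named by class were chosen for that call. Of the 46 lists, the call count stayed within 1.5 times in 45 under DESeq2, 43 with spike-in scaling and 13 with lines summed. With cultures as in the file names the 2 counts exchange (1234 above and 1759 below 0) and every sign turns. Depth limits genes under about 1 CPM, and 2 lines per genotype limit every comparison.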
